A study of Mus musculus with 2 samples.

Results

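The genes described here are 10 immune checkpoint and costimulation genes: the receptors Pdcd1 (PD-1), Ctla4, Lag3, Havcr2 (TIM-3), Tigit and Vsir (VISTA), and the ligands Cd274 (PD-L1), Pdcd1lg2 (PD-L2), Cd80 and Cd86. They were chosen by symbol and are 10 of the 31053 genes in the count matrices. Barcodes with at least 1000 unique molecular identifiers (UMIs, each a tag of 1 captured RNA molecule) and at most 17% mitochondrial UMIs were taken as cells. This kept 10107 WT and 7604 CD169-DTR cells.

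Cells of the mouse glioma line GL261 were injected, at 100000 per animal, into the brains of young adult male mice of C57BL/6 background. The WT group carried the unaltered gene for CD169, a sialic acid-binding receptor of macrophages encoded by Siglec1, and the CD169-DTR group carried the diphtheria toxin receptor in 1 copy of Siglec1, so that cells expressing Siglec1 become sensitive to the toxin. Diphtheria toxin was given to both groups on day -1 and day 4. On day 10 live CD45.2+ cells were sorted from the digested right brain hemisphere, the side of injection. Tumor and surrounding brain were thus not separated. Cells were pooled over mice and sequenced as 1 droplet library per group. Since the pooled mice cannot be separated and each group has 1 library, no test between WT and CD169-DTR was possible: every difference below is between those libraries, its 95% interval covers counting error only, and the spread between mice is unknown.

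Checkpoint receptors sit mainly on T and NK cells and dampen their activation when they bind a ligand on another cell. PD-1 binds PD-L1 and PD-L2, CTLA-4 competes with the activating receptor CD28 for CD80 and CD86, and LAG-3, TIM-3, TIGIT and VISTA each bind other partners. In the brain, microglia and infiltrating macrophages and dendritic cells (DCs) carry ligands, and myeloid cells can carry VISTA and TIM-3 themselves. PD-L1 is a known target of interferon signalling, which acts on promoters through STAT and IRF factors.

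The genes for both PD-1 ligands are neighbors on the same strand. Cd274 lies at chr19:29367455-29388095 and Pdcd1lg2 at chr19:29410919-29471161 of the mouse build GRCm38, with 22.8 kb between them. Both were higher in WT macrophages and DCs, and the windows around their starts are shown with that of Pdcd1, the gene for the receptor they bind. They run from 250 bases before to 50 bases after the start, are given 5′ to 3′ on the strand of the gene, and come from RefSeq on build GRCm38.p6, in which 8 of the 10 genes were matched and Cd86 and Lag3 were not. Pdcd1 is at chr1:94052504-94052803 (minus strand), Cd274 at chr19:29367188-29367487 (plus) and Pdcd1lg2 at chr19:29410669-29410968 (plus). Capitals mark the match to the short IRF-type motif AANNGAAA on either strand.
Pdcd1: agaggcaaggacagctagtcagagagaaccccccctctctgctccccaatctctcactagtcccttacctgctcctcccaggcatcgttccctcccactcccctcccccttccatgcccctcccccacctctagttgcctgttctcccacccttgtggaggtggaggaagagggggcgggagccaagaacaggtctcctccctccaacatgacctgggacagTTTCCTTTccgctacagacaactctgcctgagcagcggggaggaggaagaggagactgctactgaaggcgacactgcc
Cd274: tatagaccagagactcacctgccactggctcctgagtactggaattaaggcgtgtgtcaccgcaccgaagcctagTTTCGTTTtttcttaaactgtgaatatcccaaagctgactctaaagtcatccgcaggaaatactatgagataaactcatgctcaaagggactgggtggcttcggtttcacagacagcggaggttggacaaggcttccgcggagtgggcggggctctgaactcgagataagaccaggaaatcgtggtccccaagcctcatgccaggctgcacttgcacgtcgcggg
Pdcd1lg2: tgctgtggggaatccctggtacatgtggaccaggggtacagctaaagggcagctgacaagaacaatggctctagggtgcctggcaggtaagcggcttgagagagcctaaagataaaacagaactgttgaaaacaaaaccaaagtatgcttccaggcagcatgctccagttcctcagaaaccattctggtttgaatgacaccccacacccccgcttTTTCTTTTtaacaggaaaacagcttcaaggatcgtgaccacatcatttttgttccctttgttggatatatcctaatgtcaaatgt
Each of these windows, and that of Cd80, held the short motif once, and 23.9% of 32851 mouse promoter windows of the same length held it. The longer core of the interferon-stimulated response element, GAAA repeated after any 2 bases, contains the short motif and was in 3.44% of all windows, and the STAT-type motif TTCNNNGAA in 8.30%. Neither set of letters was in the 8 windows. A match is a description of letters and not a site in use.

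The WT library held 101808996 UMIs and the CD169-DTR library 84065489. The kept cells had medians of 7776 and 8099 UMIs, and the libraries shared 21 barcodes. Clusters were named from marker genes, with the checkpoint genes left out of the clustering, and immune classes held 9375 WT and 6986 CD169-DTR cells. In WT and CD169-DTR respectively, these were 4733 and 5368 microglia, 2276 and 729 macrophages, 1155 and 244 DCs, 474 and 218 T cells, 334 and 86 NK cells, 169 and 194 granulocytes, 73 and 124 B cells, and 135 and 14 plasmacytoid DCs (pDCs). Mast cells and basophils, at 26 and 9 cells, and the CD169-DTR pDCs are too few to carry a comparison. Depth differed between libraries within some classes. Median UMIs were 7229 in WT and 11768 in CD169-DTR macrophages, 11324 and 14484 in DCs, and 7639 and 7883 in microglia. The part of depth in the differences below was not tested. Siglec1 stood at 37.9 CPM (UMIs of the gene per 1000000 UMIs of the class) in macrophages of the WT and 12 in those of the CD169-DTR library, and at 19.0 and 5.63 in microglia, so transcript remained in the CD169-DTR library. CD45 (Ptprc), the gene behind the sort, had 36.9 and 23.9 CPM in the 582 and 482 non-immune cells of the gate and 306 and 302 in microglia. Levels are not compared between genes, since 3′ counts depend on each transcript.

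Free RNA and mixed droplets bear on every low level. T, NK and B cells held a median of 2 UMIs of microglial marker genes in both libraries, but 80 of 881 WT and 24 of 428 CD169-DTR lymphocytes held over 10, and these few carried 90.3% and 86.1% of such UMIs. The 2 ways of estimating free RNA therefore differed, at 205 and 133 UMIs per droplet from the median and 1584 and 800.1 from the mean. In barcodes of 10 to 100 UMIs, Lag3 was at 217 CPM in WT and 339.6 in CD169-DTR, Vsir at 251 and 433, and Cd274 at 62.9 and 24.4.

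Pdcd1, the receptor that restrains T cells after repeated antigen contact, was highest in T cells and second in microglia. WT T cells had 98.2 CPM (88.9 to 108) and CD169-DTR T cells 73.6 (60.8 to 88.2), and microglia 46.3 (44.3 to 48.4) and 36.2 (34.6 to 37.9). The other classes lay far lower in WT, at 7.01 CPM or less, and at 14.9 or less in CD169-DTR, against 2.55 and 1.58 in non-immune cells. After every cell was thinned to 4500 UMIs, 20.1% of WT and 17.6% of CD169-DTR T cells held a Pdcd1 UMI, as did 12.9% and 9.98% of microglia and 1.13% and 0.448% of non-immune cells. Of microglia with a Pdcd1 UMI, 2.66% in WT and 1.04% in CD169-DTR held a T cell marker UMI, against 2.52% and 0.97% of those without.

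Ctla4, the receptor that takes CD80 and CD86 away from CD28, was found almost entirely in T cells. WT T cells had 168 CPM (155 to 181) and CD169-DTR T cells 66.7 (54.6 to 80.6). Microglia and macrophages had at most 0.378 CPM in either library, and the next highest class was pDCs at 12.5 in WT. After thinning, 17.4% of WT and 14.8% of CD169-DTR T cells held a Ctla4 UMI, so the shares of cells differed less than the levels. Tigit, a receptor of T and NK cells for the nectin-like protein CD155, had only 26 UMIs in the immune classes of both libraries together. Of these, 10 were in WT NK cells and 9 in WT T cells, with 1 and 3 in the same classes of CD169-DTR, so differences were not detectable at this depth.

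Lag3, a receptor for MHC class II, was highest in microglia and not in lymphocytes. WT microglia had 594 CPM (587 to 602) and CD169-DTR microglia 534 (528 to 541), and 82.7% and 79.1% of thinned microglia held a UMI. The pDCs came next, at 296 CPM (269.6 to 325) in 135 WT cells and 345 (265 to 441) in 14 CD169-DTR cells. T cells had 47.9 (41.5 to 55.0) and 28.9 (21.2 to 38.6), and macrophages 46.5 and 44.1, close to the 32.3 and 28.5 of non-immune cells. A share of 12.1% of WT and 6.25% of CD169-DTR T cells held a UMI, against 6.78% and 7.40% of non-immune cells, so the CD169-DTR share was no higher than background.

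The lymphocyte and granulocyte values of Lag3 rested on the few cells with over 10 microglial marker UMIs. In B cells, 33 of 34 WT Lag3 UMIs lay in 12 such cells and 79 of 84 CD169-DTR UMIs in 7. Without these cells, the level in B cells was 3.08 CPM in WT and 9.45 in CD169-DTR in place of 61.5 and 125. Granulocytes went from 51.6 and 119 to 9.17 and 8.05, NK cells from 69.5 and 41.1 to 13.2 and 19.4, and T cells to 25.3 and 14.5. The intervals were then 20.2 to 31.3 and 8.99 to 22.2 in T cells, and 8.43 to 19.6 and 9.69 to 34.7 in NK cells. All these T and NK cell levels lay below the level given above for non-immune cells of the same library. The non-immune cells were not filtered for microglial marker UMIs, so the comparison is not like for like. The interval of CD169-DTR NK cells also reached past the non-immune level. T cells remained higher in WT, with a log2 ratio of WT over CD169-DTR of 0.80 (0.10 to 1.56).

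**Figure D1:**
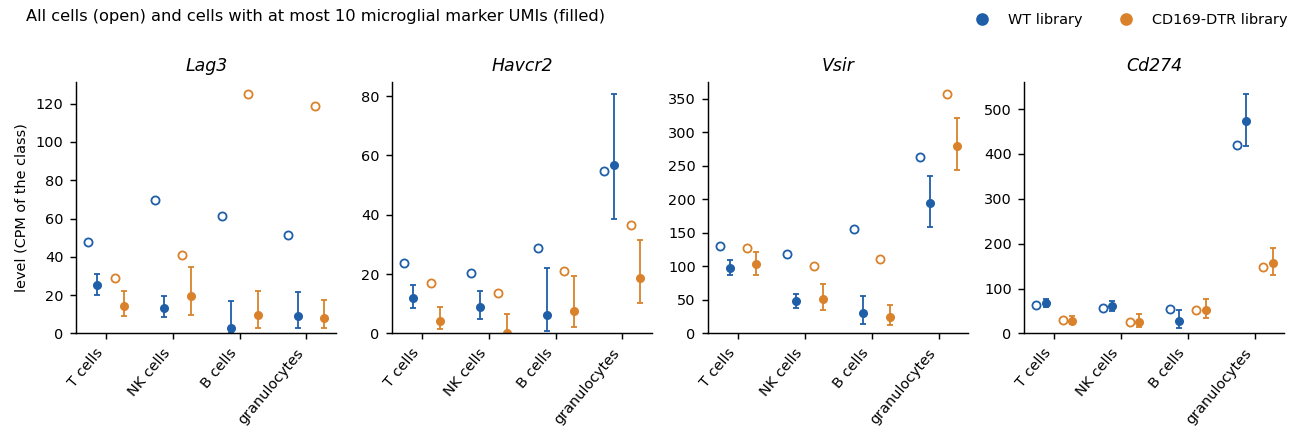
Levels of Lag3, Havcr2, Vsir and Cd274 in CPM (vertical axis) in T cells, NK cells, B cells and granulocytes of each library, over all cells (open points) and over cells with at most 10 microglial marker UMIs (filled points, with 95% counting intervals). Lag3 in B cells drops from 61.5 and 125 CPM to 3.08 and 9.45, whereas Cd274 in T cells moves from 62.5 and 30.8 to 67.4 and 28.4.

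Havcr2, which encodes TIM-3, was a myeloid gene in both libraries. WT microglia had 148 CPM (145 to 152), CD169-DTR microglia 151 (148 to 155), DCs 92.9 and 85.5, and macrophages 91.6 and 78.5. T cells had 23.6 and 17, and 12.1 and 4.15 without the cells of over 10 microglial marker UMIs. Vsir, an inhibitory receptor of the B7 family that myeloid cells share with T cells, was also highest in microglia, at 578 CPM (571 to 585) for WT and 645 (638 to 652) for CD169-DTR. Granulocytes followed with 263 (225 to 305) and 358 (319.6 to 399), then macrophages with 153 and 209 among the larger classes. By share of thinned cells with a Vsir UMI, granulocytes and not microglia ranked first in CD169-DTR, on 52 granulocytes. Without the marker-rich cells, T cells had 97.7 and 104 in place of 130.1 and 127, and B cells 30.8 and 24.6 in place of 156 and 110.4.

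Cd274, the main PD-1 ligand, had its highest level in granulocytes of both libraries. The WT level there was 420.5 CPM (372 to 473), and the CD169-DTR level 147 (123 to 174). Macrophages had 117 (112 to 122) and 56.5 (51.9 to 61.5), DCs 92.3 (87.3 to 97.6) and 47.0 (40.3 to 54.5), and microglia only 38.5 (36.6 to 40.4) and 25.6 (24.2 to 27.0). Below DCs the intervals of neighboring classes mostly overlapped, and non-immune cells had 54.1 and 27.3. Granulocytes were shallow, with medians of 2924 and 3629 UMIs, and of the 28 and 52 deep enough for thinning 46.4% and 15.4% held a UMI. By this share, B cells and not granulocytes ranked first in CD169-DTR, on 50 B cells. After thinning, 30.9% of WT and 20.3% of CD169-DTR macrophages held a UMI, 14.0% and 8.38% of microglia, and 17.7% and 12.1% of non-immune cells. The microglial share was thus below that of cells outside the immune classes, in which free RNA by the smaller estimate made up 0.872 and 0.206 CPM.

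Pdcd1lg2, the second PD-1 ligand, was low, and its order of classes was not that of Cd274. Among classes of over 50 cells, NK cells were highest, at 34.8 CPM (27.3 to 43.6) for WT and 27.4 (16.2 to 43.3) for CD169-DTR, and they kept 38.9 and 28.2 without the marker-rich cells. Granulocytes came next in both libraries, at 22.8 (12.7 to 37.6) and 15.5 (8.50 to 26.1), with intervals that overlapped those of NK cells. DCs had 21.3 (19.0 to 23.9) and 9.83 (6.92 to 13.5), T cells 18 and 12.6, and macrophages 7.78 and 3.01. Microglia had 0.885 and 0.538, near the 0.813 of WT non-immune cells, while the CD169-DTR non-immune cells had 0 UMIs, which allows up to 0.396 CPM.

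Cd80 and Cd86 encode the costimulatory ligands that CD28 and CTLA-4 share. Cd80 was highest in granulocytes, at 71.3 CPM (52.4 to 94.9) for WT and 41.1 (28.9 to 56.6) for CD169-DTR, followed by DCs at 37.0 (33.9 to 40.4) and 35.9 (30.1 to 42.4). The intervals of these classes overlapped in CD169-DTR and not in WT. Microglia had 6.92 and 8.24, and macrophages 11.4 and 11.6. Cd86 was spread over all myeloid classes, with 386 CPM (379.7 to 392) in microglia of WT and 347 (342 to 352) in those of CD169-DTR, 355 and 281 in DCs, and 319 (311 to 327) and 201 (192 to 210.5) in macrophages. Cd86 in B cells, which carry it once activated, was 177 and 125. Of its B cell UMIs, 56 of 98 in WT and 34 of 84 in CD169-DTR lay in cells of over 10 microglial marker UMIs. Without those cells the B cell levels were 129 and 94.5.

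**Figure D2:**
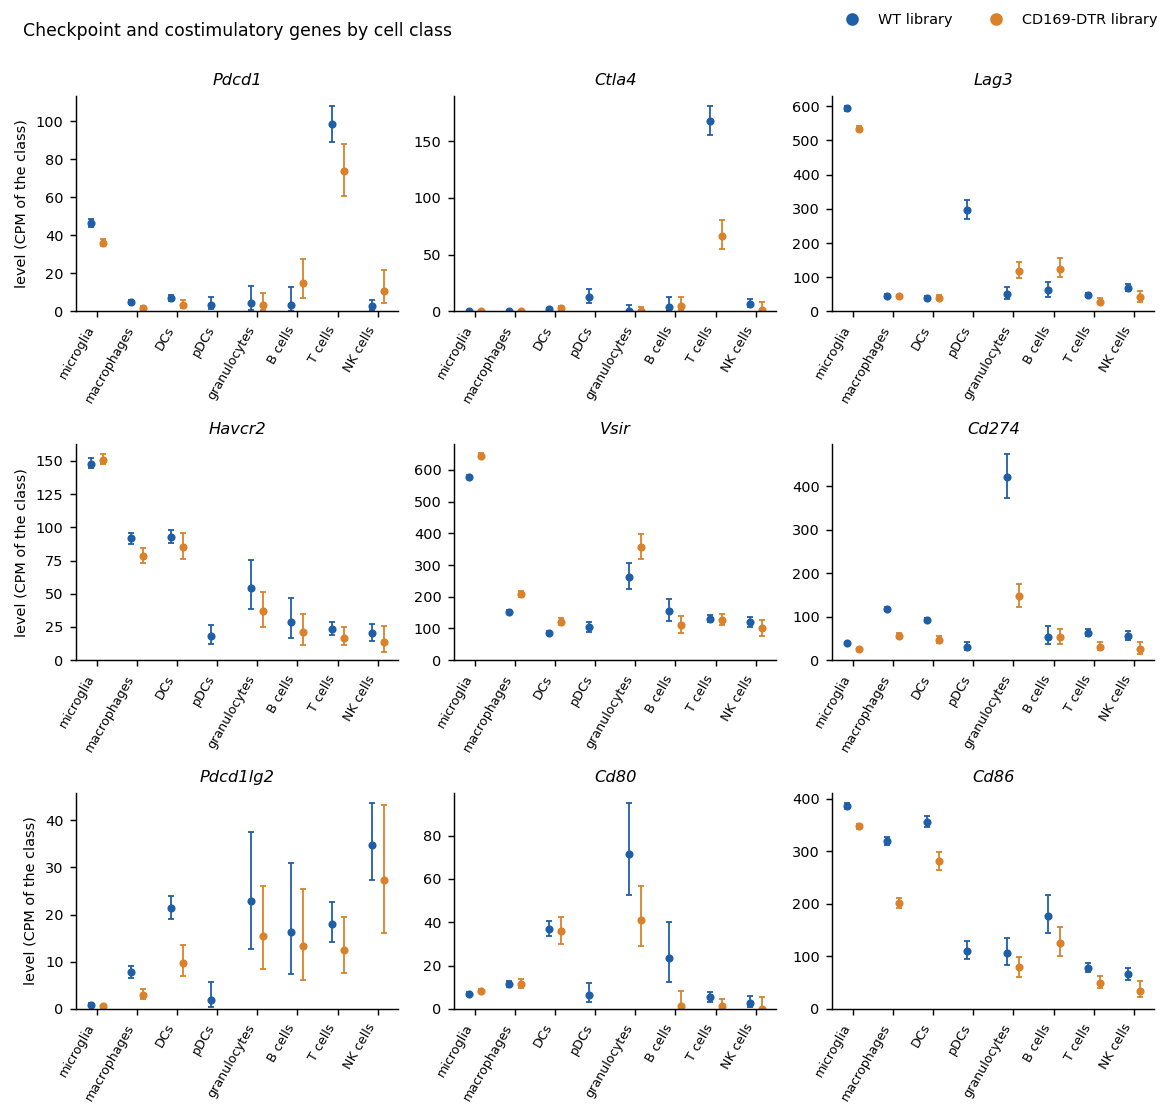
Level of 9 of the genes in CPM (vertical axes, starting at 0, scaled per gene) in each immune class with at least 20 cells. Mast cells and basophils are left out. Intervals are 95% counting intervals, with WT in blue and CD169-DTR in orange. Lag3, Havcr2, Vsir and Cd86 peak in microglia, Pdcd1 and Ctla4 in T cells, Cd80 and Cd274 in granulocytes, and the intervals of both libraries stand apart in granulocytes, macrophages and DCs for Cd274, which is higher in WT, and for Vsir, which is lower.

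The libraries were then compared class by class as a log2 ratio, WT divided by CD169-DTR, for genes whose UMIs in the libraries summed to 20 or more. A ratio of at least 1 either way was counted, as a description. In macrophages, 3 of 8 of the genes were past 1 in the direction of WT, where 3.70% of all genes were. These were Pdcd1, Cd274 and Pdcd1lg2. In DCs it was 2 of 9 against 3.54%, Pdcd1 and Pdcd1lg2, with Cd274 just inside. In T cells it was 3 of 9 against 7.07% (Cd274, Cd80 and Ctla4), in NK cells 1 of 6 against 5.27% (Cd274), and in microglia 0 of 8 against 1.43%. None of these 5 classes had a gene past 1 in the direction of CD169-DTR, where 1.65% of all genes were in macrophages, 2.94% in DCs, 1.40% in T cells, 2.25% in NK cells and 1.46% in microglia. In that direction 1 of 7 was counted in granulocytes (7.35% of all genes) and 1 of 5 in B cells (4.24%), Lag3 in each case. Granulocytes also had 1 of 7 higher in WT, against 4.65%, and no B cell value was (5.70%).

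These counts changed when the cells of over 10 microglial marker UMIs were left out, a choice made after seeing the data. In granulocytes 3 of 6 genes were then past 1 in the direction of WT (6.16% of all genes) and 0 of 6 in the other (8.24%). These were Cd274 at 1.58, Cd86 at 1.10 (0.39 to 1.84) and Havcr2 at 1.60 (0.64 to 2.62). T cells had 3 of 8 higher in WT (6.57%), in which Havcr2, at 1.54 (0.30 to 3.07) in place of 0.47, stood where Cd80 had too few UMIs, and none lower (1.61%). NK cells had 2 of 5 higher (5.65%), Cd86 beside Cd274, and none lower (2.42%), and B cells 0 of 3 either way (4.45% and 5.69%). Cd86 in NK cells was 1.48 (0.36 to 2.86), on 63 against 7 UMIs. Its sign depended on the correction. Over all NK cells, subtracting free RNA by the larger estimate made it lower in WT, as given in the last section.

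The interval for Cd274 lay above 0 in 6 of the 7 classes compared. The log2 ratio was 1.52 (1.22 to 1.83) in granulocytes, 1.05 (0.91 to 1.19) in macrophages, 0.97 (0.75 to 1.21) in DCs and 0.59 (0.48 to 0.69) in microglia. In T cells it was 1.02 (0.58 to 1.49) and in NK cells 1.13 (0.39 to 1.95), and without the marker-rich cells 1.25 and 1.20. B cells were the exception at 0.06 (-0.70 to 0.80), and at -0.93 (-2.20 to 0.19) without the marker-rich cells. Free RNA, as given above, was also richer in Cd274 in WT, and subtracting it by the larger estimate left 1.15 in macrophages, 1.00 in DCs, 1.82 in granulocytes and 0.37 in microglia.

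A list of 20 interferon-response genes moved the same way as Cd274 and is given beside it, without a test of its part. Its summed level had a log2 ratio of 1.57 in granulocytes and in macrophages, 1.09 in DCs, 0.99 in T cells, 1.49 in NK cells and 0.58 in microglia. B cells, where Cd274 was even, had 2.12.

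Pdcd1lg2 was higher in WT by 1.37 (0.79 to 2.00) in macrophages and 1.12 (0.62 to 1.65) in DCs. In NK cells, T cells and microglia the intervals included 0. Cd86 was higher in WT by 0.66 (0.59 to 0.74) in macrophages, 0.34 (0.24 to 0.44) in DCs and 0.15 (0.12 to 0.18) in microglia. Cd80 did not follow its partner: the ratio was -0.03 (-0.36 to 0.32) in macrophages, 0.05 (-0.23 to 0.33) in DCs and -0.25 (-0.47 to -0.03) in microglia, and 0.80 (0.14 to 1.46) in granulocytes. In T cells it was 2.07 (0.05 to 5.21) on 22 UMIs against 2.

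Among the receptors, Ctla4 in T cells had a ratio of 1.33 (1.03 to 1.64). It shrank to 0.58 when each T cell cluster was given the same weight in both libraries and to 0.70 as a mean over cells, and 73 of the 697 WT UMIs were in 1 cell, without which it was 1.18 (0.88 to 1.5). The fullest CD169-DTR cell held 12 of 106 UMIs, and leaving out both cells gave 1.35. Pdcd1 was higher in WT by 0.42 (0.12 to 0.72) in T cells, 0.35 (0.26 to 0.45) in microglia, 1.32 (0.59 to 2.12) in macrophages and 1.02 (0.18 to 1.98) in DCs. The macrophage value rests on levels of 4.92 and 1.97 CPM, and was 0.20 without the 8% of barcodes with the highest doublet score. In DCs, 50 of the 96 WT UMIs were in the Ccr7 Cacnb3 cluster of 120 cells, which had 12 cells in CD169-DTR, and the Cd209a H2-Eb1 cluster had 4.11 and 4.49 CPM, a ratio of -0.13 (-1.07 to 0.91). Of WT DCs with a Pdcd1 UMI, 27.8% (5 of 18) also held a T cell marker UMI, against 4.55% (46 of 1010) of those without, and in WT macrophages it was 6.67% (1 of 15) and 3.13% (50 of 1595). Their part in these ratios was not tested.

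Vsir went the other way in the myeloid classes. The ratio was -0.16 (-0.18 to -0.14) in microglia, -0.45 (-0.53 to -0.37) in macrophages, -0.50 (-0.66 to -0.34) in DCs and -0.45 (-0.72 to -0.17) in granulocytes, and 0.04 (-0.20 to 0.28) in T cells. Free RNA held less Vsir in WT too, and subtracting it by the larger estimate gave -0.59 in macrophages and -0.79 in DCs. Havcr2 was nearly level, at -0.03 (-0.07 to 0.02) in microglia, 0.12 (-0.06 to 0.30) in DCs and 0.22 (0.10 to 0.35) in macrophages. Lag3 differed by 0.15 (0.13 to 0.18) in microglia and 0.08 (-0.09 to 0.25) in macrophages, a value that was -0.87 without the barcodes of highest doublet score. Its ratios of -1.20 in granulocytes and 0.76 in NK cells turned to 0.19 and -0.56 without the marker-rich cells.

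**Figure D3:**
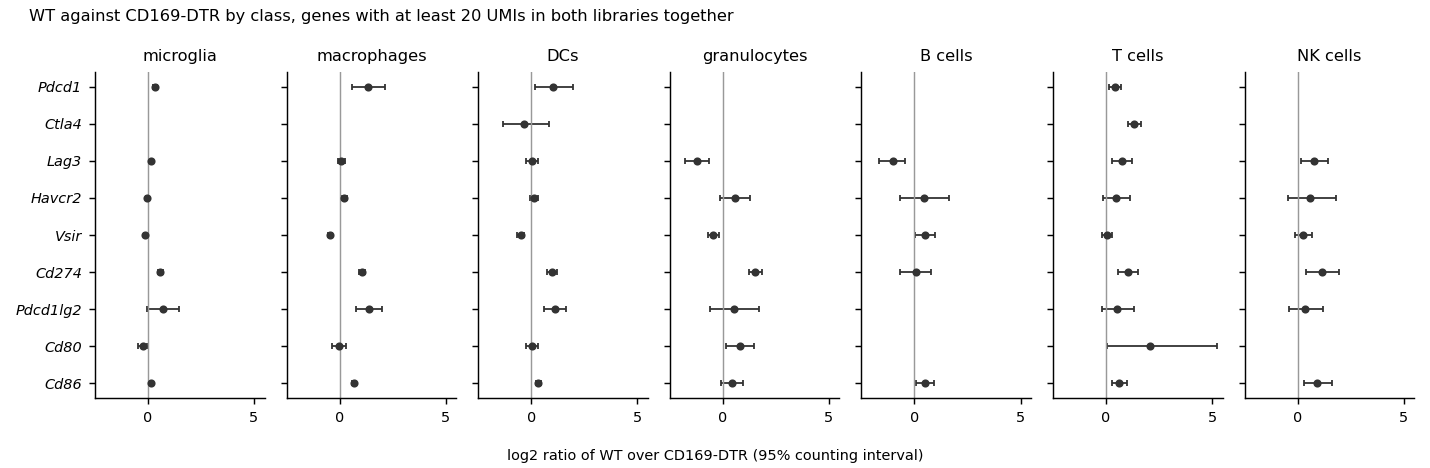
Log2 ratio, WT divided by CD169-DTR (horizontal axis, 0 marked by a line), for each gene (listed vertically) with a summed count of 20 UMIs or more, in 7 classes, with 95% counting intervals. Cd274 lies right of 0 in all 7 classes, with an interval that includes 0 in B cells only, and Vsir lies left of 0 in microglia, macrophages, DCs and granulocytes.

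The median ratio over the genes counted was 0.44 in macrophages, where it was -0.05 over all genes, 0.12 in DCs (-0.03), 0.15 in microglia (-0.04), 0.55 in granulocytes (-0.13), 0.63 in T cells (0.11) and 0.67 in NK cells (-0.00). A list of 24 further genes of these pathways, from partner ligands to costimulatory receptors, stood closer to 0, with medians of 0.13 in macrophages, 0.07 in DCs and 0.04 in microglia. Past 1 in the direction of WT were 1 of 15 in macrophages and 2 of 16 in DCs, against the 3.70% and 3.54% of all genes given above. Cd200, the ligand of an inhibitory myeloid receptor, was among them in both, at 4.75 against 1.35 CPM in macrophages and 48.8 against 17.3 in DCs. The other in DCs was Icos, a costimulatory receptor, at 3.58 and 1.33. In the direction of CD169-DTR it was 1 of 16 in DCs, against 2.94%, namely Ceacam1, an adhesion molecule that has been described as a partner of TIM-3, at 4.67 and 10.4 CPM, a ratio of -1.15 (-1.74 to -0.53).

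In the other classes few of these 24 genes were past 1. Microglia had 1 of 17 higher in WT (1.43% of all genes), Cd28, on 27 and 9 UMIs. Free RNA by the smaller estimate made up 26.5% and 20.1% of these UMIs, and the part of T cell RNA in this ratio was not tested. Granulocytes had 1 of 8 higher in WT (4.65%), Pvr, the gene of the TIGIT ligand CD155, at 28.8 against 12.2 CPM. B cells had 1 of 9 (5.70%), Lgals9, at 123 against 61.2. Neither value was recomputed without the cells of over 10 microglial marker UMIs. These were 12 WT and 16 CD169-DTR granulocytes, and 12 and 7 B cells. T cells had 2 of 16 (7.07%), Cd200r1, the receptor for CD200, at 22.1 against 8.80 CPM, and Pvrig, on 18 and 3 UMIs. NK cells had 2 of 14 in the direction of CD169-DTR (2.25%), Cd160, an NK and T cell receptor, at 39.9 against 83.8 CPM with a ratio of -1.07 (-1.58 to -0.56), and Cd200r1, on 12 and 8 UMIs with a ratio of -1.13 (-2.54 to 0.36). Cd28, which encodes the activating rival of CTLA-4, was at 190.0 CPM in WT and 204 in CD169-DTR T cells, a ratio of -0.10 (-0.29 to 0.09). Cd96, an adhesion receptor that shares its ligand with TIGIT, was lower in WT T cells by -0.62 (-1.02 to -0.21) on the log2 scale. Lgals9, whose product galectin-9 binds TIM-3, was at 203 and 168 CPM in macrophages and 240.4 and 233 in microglia.

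Within microglia, the genes were set against cluster, and clusters are called by their leading genes. Vsir was highest in the cluster led by the homeostatic gene P2ry12 and by Sox4, at 1338 CPM in WT and 1328 in CD169-DTR. It was lower in every other cluster, with 820.1 and 850.5 in the Cst3 Gpr34 cluster, 461 and 470.3 in the Cst7 Lpl cluster, 288 and 299.7 in the Spp1 Igf1 cluster and 282 and 367 in the Cxcl13 Cxcl10 cluster. Havcr2 followed a flatter course, from 208 and 210.3 in the P2ry12 Sox4 cluster to 97.2 and 113 in the Ccnb2 Cdkn3 cluster. With 1190 WT and 1780 CD169-DTR cells, the P2ry12 Sox4 cluster made up more of CD169-DTR microglia. The Vsir ratio of all microglia went from -0.16 to -0.06 when each cluster was given the same weight in both libraries.

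Cd274 and Pdcd1 were lowest where Vsir was highest. Cd274 was 12.3 CPM in WT and 8.07 in CD169-DTR in the P2ry12 Sox4 cluster and 96.4 and 71.9 in the Cxcl13 Cxcl10 cluster, a log2 difference of 2.97 (2.63 to 3.33) and 3.16 (2.81 to 3.52). Pdcd1 was 17.4 and 10.0 in the P2ry12 Sox4 cluster, 58.8 and 46.5 in the Cst7 Lpl cluster and 56.1 and 69.5 in the Cxcl13 Cxcl10 cluster. Among the remaining clusters it ranged from 24.6 in the Ccnb2 Cdkn3 cluster to 80.2 in the Uhrf1 Mcm5 cluster of WT. For the Cxcl13 Cxcl10 cluster over the P2ry12 Sox4 cluster, 2 of 7 of the genes were past 1 upward in both libraries, where 7.62% of all genes were in WT and 6.61% in CD169-DTR, and 1 of 7 downward, where 13.3% and 11.9% were. For the Cst7 Lpl cluster it was 2 of 7 upward (5.38% and 5.14%) and 2 of 7 downward (9.26% and 8.96%), namely Vsir and Cd80. The Spp1 Igf1 cluster also had 2 upward (7.55% and 7.52%), again Cd274 and Pdcd1, and 2 downward (19.9% and 23.8%). The Mki67 Top2a cluster of dividing cells had 2 upward (13.4% and 13.6%), and downward 1 in WT (10.5%) and 2 in CD169-DTR (11.6%), where Lag3 joined Vsir. In each library on its own, the P2ry12 Sox4 cluster had the highest Vsir and the lowest Cd274 and Pdcd1 of the 9 clusters.

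Lag3 did not share that order between libraries. It was highest in the Cst3 Gpr34 cluster in both, at 772 CPM in WT and 852 in CD169-DTR, and lowest in clusters of dividing cells, at 326 and 267 in the Ccnb2 Cdkn3 cluster and 326 and 306 in the Mki67 Top2a cluster. In the Spp1 Igf1 cluster it was 601 in WT and 313 in CD169-DTR, a ratio of 0.94 (0.85 to 1.04), whereas in the P2ry12 Sox4 cluster it was 541 and 643. The same Spp1 Igf1 cluster had 50.3 and 22.6 CPM of Cd274, a ratio of 1.16 (0.80 to 1.52).

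**Figure D4:**
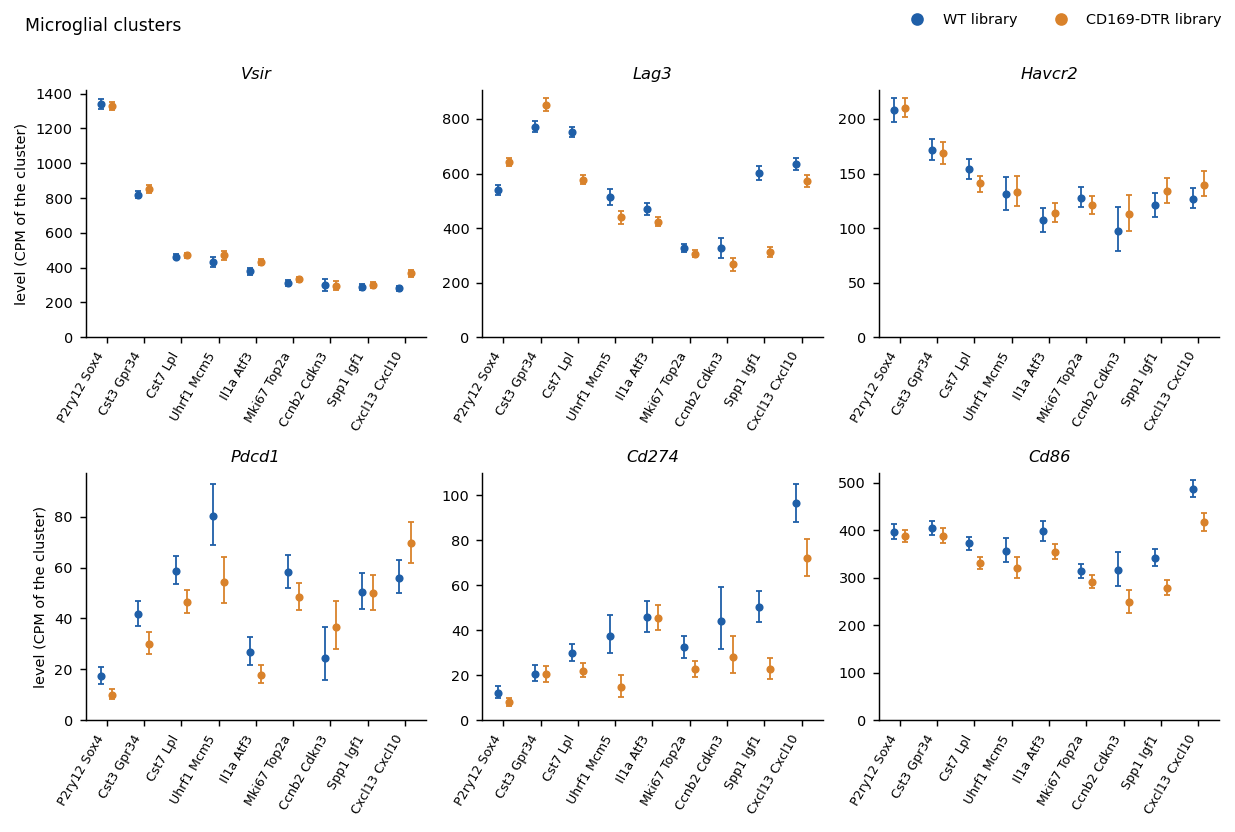
Levels of 6 genes in CPM (vertical axes, starting at 0) in the 9 microglial clusters, ordered by Vsir in WT and named by leading genes, with 95% counting intervals. Vsir falls from 1338 CPM in the P2ry12 Sox4 cluster to 282 in the Cxcl13 Cxcl10 cluster of WT while Cd274 goes from 12.3 to 96.4, and the libraries stand apart for Lag3 and Cd274 in the Spp1 Igf1 cluster.

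Over the 9 microglial clusters, Cd274 went with the summed interferon-response list at a Pearson r of 0.89 in WT and 0.85 in CD169-DTR (Spearman rho 0.72 and 0.80). Over the 25 and 21 clusters of all immune cells, r was 0.71 and 0.53 and rho 0.59 and 0.41. These points share a library and its free RNA, and the values are a description. The list stood at 14696 and 12193 CPM in the Cxcl13 Cxcl10 cluster and at 1082 and 781 in the P2ry12 Sox4 cluster.

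Macrophages fell into a Gpnmb Fabp5 cluster (1116 WT and 335 CD169-DTR cells), a Clec4e Plac8 cluster with the monocyte gene Ly6c2 among its leading genes (960 and 247) and a Hp Ear2 cluster with non-classical monocyte markers (200 and 147). Cd274 was 144 CPM in WT and 74.9 in CD169-DTR in the Clec4e Plac8 cluster and 100.5 and 45.2 in the Gpnmb Fabp5 cluster, ratios of 0.94 (0.73 to 1.15) and 1.15 (0.95 to 1.37). The Hp Ear2 cluster did not follow, with 45.5 and 63.2 and a ratio of -0.47 (-0.95 to 0.01). The interferon-response list was higher in WT in each of these clusters. It stood at 18955 and 8788 CPM in the Clec4e Plac8, 6462 and 2296 in the Gpnmb Fabp5 and 2514 and 1239.5 in the Hp Ear2 cluster. Cd86 had the same order in both libraries, at 411 and 299.8, 246 and 171, and 151 and 104 in these clusters, with the Clec4e Plac8 cluster first. Vsir had the reverse order, at 118 and 169 in the Clec4e Plac8 cluster, 171 and 208 in the Gpnmb Fabp5 cluster and 263 and 306 in the Hp Ear2 cluster.

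Among WT macrophages, 529 held a UMI of Siglec1 and 1747 did not, and 390 and 1220 remained after thinning to 4500 UMIs. Between them 0 of 7 genes were past 1, against 1.74% of 9649 genes higher and 2.75% lower in cells with a UMI, and all 7 intervals included 0. Cd274 was 126 CPM in cells with and 118 in cells without a Siglec1 UMI, a ratio of 0.10 (-0.13 to 0.32), Cd86 305 and 326, a ratio of -0.09 (-0.24 to 0.05), and Vsir 152 and 147, a ratio of 0.05 (-0.15 to 0.25). Cells without a UMI can still express Siglec1 below detection, so the groups are not CD169+ and CD169- cells. The number of genes whose interval left out 0 was 1 after thinning to 2000 UMIs (Lag3, at 0.86), 1 without the barcodes of highest doublet score (Cd86, at -0.16) and 3 without thinning. The last were Cd86 (-0.18), Vsir (0.15) and Pdcd1 (0.83), which had too few UMIs after thinning to be among the 7.

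In the CD169-DTR library only 88 thinned macrophages held a Siglec1 UMI and 561 did not. Of 6 genes 1 was past 1, lower in cells with a UMI, where 8.61% of 8179 genes were lower and 2.21% higher. This was Cd80, on 1 UMI against 43, a ratio of -2.75 (-8.09 to -0.20). Cd274 had 0.30 (-0.30 to 0.85), Cd86 -0.13 (-0.51 to 0.22) and Vsir 0.08 (-0.29 to 0.42). Pdcd1, below the count limit at 4 UMIs against 2, had 3.67 (0.87 to 7.14).

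DC clusters differed strongly in the ligands. The Ccr7 Cacnb3 cluster, which matched the markers of migratory DCs with 120 WT and 12 CD169-DTR cells, had 332 CPM of Cd274 in WT and 288 in CD169-DTR. In the Cd209a H2-Eb1 cluster, with 848 and 200 cells, it was 76.4 and 37.3. Cd80 was 162 (141 to 186) and 152 (102 to 217) against 27.7 and 33.1, and Pdcd1lg2 107 (90.3 to 127) and 86.0 (50.1 to 138) against 14.0 and 6.56. The log2 differences were 2.12 and 2.95 for Cd274, 2.55 and 2.20 for Cd80 and 2.94 and 3.71 for Pdcd1lg2. In WT, 4 of 8 of the genes were past 1 upward and 2 downward, where 10.0% and 25% of all genes were, and in CD169-DTR 3 of 7 and 1 of 7 (11.1% and 21.4%). Havcr2 was among the lower ones, at 18.5 and 20.2 CPM against 86.4 and 82.8, and among DCs it was highest in the Xcr1 Snx22 cluster, led by a gene of cross-presenting DCs, at 142 and 116. Pdcd1 in the Ccr7 Cacnb3 cluster was 38.6 CPM in WT and had 0 UMIs in the 12 CD169-DTR cells, a count that allows up to 15.2 CPM.

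T cell clusters differed most in Ctla4. The Tnfrsf4 Tnfrsf18 cluster, whose leading genes include Ikzf2 and Il2ra, genes of regulatory T cells, had 521 CPM (480.0 to 564) in 74 WT cells and 338 (265 to 425) in 28 CD169-DTR cells, a ratio of 0.62 (0.27 to 1.00). The Trbc2 Cd3g cluster had 58.7 and 39.2, the Cd8b1 Cd3d cluster of CD8 T cells 27.9 and 19.9, and the Cd3d Xcl1 cluster 5.06 and 13.2. The log2 difference of the Tnfrsf4 Tnfrsf18 over the Trbc2 Cd3g cluster was 3.15 (2.74 to 3.59) for WT and 3.11 (2.31 to 3.99) for CD169-DTR. Of the genes counted in that contrast, 2 of 8 in WT and 3 of 5 in CD169-DTR were past 1 upward (10.2% and 16.4% of all genes), and 0 in either library downward (7.59% and 6.36%).

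Pdcd1 was spread more widely over T cell clusters. It was 133 CPM in WT and 129.5 in CD169-DTR in the Tnfrsf4 Tnfrsf18 cluster, 106 and 46.6 in the Trbc2 Cd3g cluster and 98.8 and 52.4 in the Cd8b1 Cd3d cluster, where the ratio was 0.91 (0.30 to 1.57). The Calca Trdc cluster matched γδ T cell markers, with 45 and 16 cells, and also has Gata3, Il13 and Il5, genes of type 2 innate lymphoid cells, among its 10 leading genes. Pdcd1 there was highest in both libraries, with the libraries in the opposite order, at 153 (117 to 196) and 284 (193 to 403), a ratio of -0.89 (-1.54 to -0.22). The WT interval overlapped that of the Tnfrsf4 Tnfrsf18 cluster. The Cd3d Xcl1 cluster, with 10.1 and 32.9, was lowest. Cd274 in the Cd8b1 Cd3d cluster was 74.1 in WT and 18.1 in CD169-DTR, a ratio of 2.04 (1.07 to 3.16). The myeloid ligand Cd86 moved with it there, at 129.9 and 38.0 CPM, and its part in the result was not tested.

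**Figure D5:**
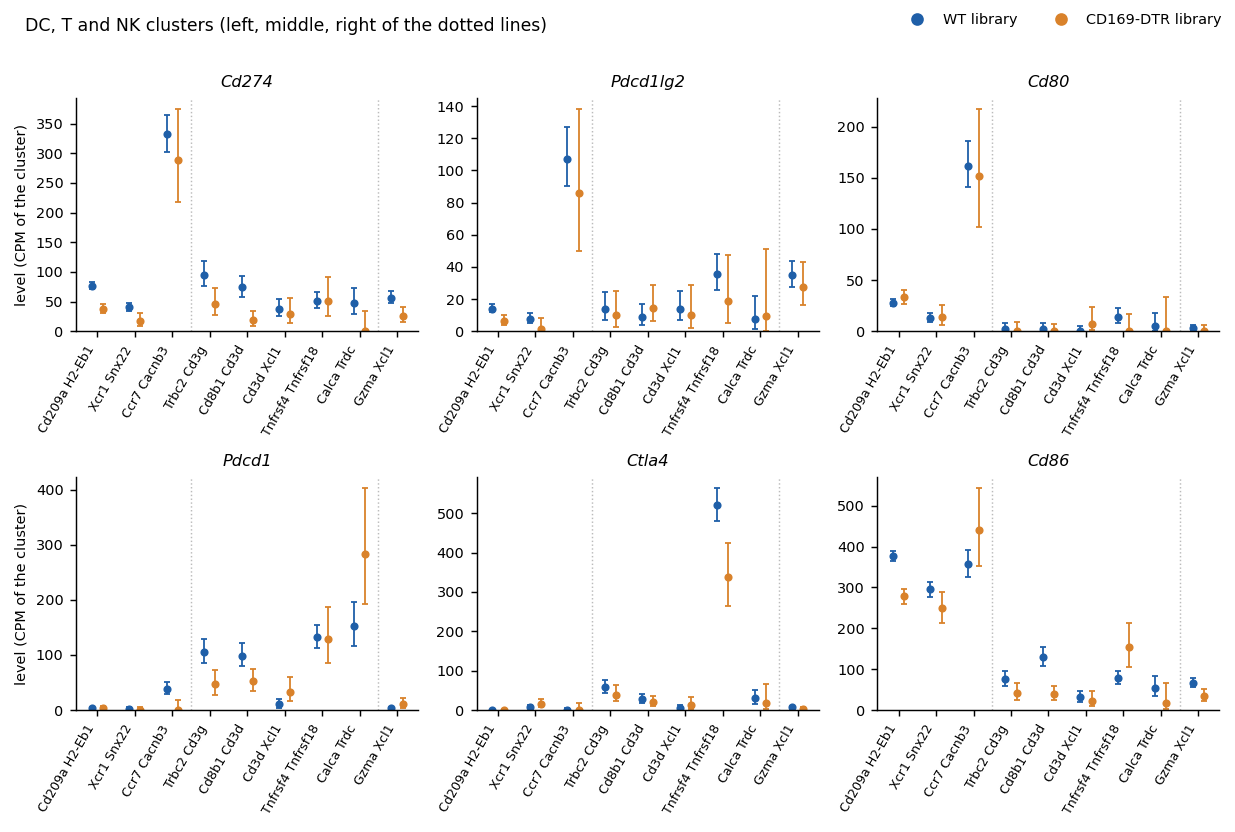
Levels of 6 genes in CPM (vertical axes, starting at 0) in DC clusters (left), T cell clusters (middle) and NK cells (right) with at least 10 cells, with 95% counting intervals. The Ccr7 Cacnb3 cluster holds the highest Cd274, Pdcd1lg2 and Cd80 in both libraries, and the Tnfrsf4 Tnfrsf18 cluster the highest Ctla4, at 521 and 338 CPM.

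With all T cell clusters pooled, Ctla4 was found more often in T cells with a Pdcd1 UMI. After thinning, 34.2% (25 of 73) of such WT T cells held Ctla4 against 13.1% (38 of 290) of the others, and in CD169-DTR 29.0% (9 of 31) against 11.7% (17 of 145). In WT the Tnfrsf4 Tnfrsf18 cluster was high in both genes, at 133 CPM of Pdcd1 and 521 of Ctla4. The Cd3d Xcl1 cluster was low in both, at 10.1 and 5.06, whereas the Calca Trdc cluster had 153 and 29.6. The part of the cluster mix in these shares was not tested. In WT DCs, Cd80 was in 25.8% (70 of 271) of cells with Cd274 and 7.53% (57 of 757) of those without, and in CD169-DTR in 16.7% (6 of 36) and 10.8% (21 of 195). DC clusters were pooled too, and the Ccr7 Cacnb3 cluster was higher than the Cd209a H2-Eb1 cluster in both genes. Its part in the DC shares was not tested. In microglia Lag3 was in 84.3% of WT cells with a Pdcd1 UMI and 82.5% of those without.

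The genes whose levels over 16 class profiles were most like each member, by Pearson r of log2(CPM + 10), are given as a description. Ctla4 was nearest to Camk4 (0.95), Nsg2 (0.95) and Foxp3 (0.94), Cd86 to Fcgr1 (0.95), Aif1 (0.94) and Axl (0.94), and Havcr2 to Rnf180 (0.96). Vsir was nearest to Fmnl3 (0.95), Lag3 to Itfg1 (0.93) and Cd80 to Gca (0.94). The PD-1 axis had looser neighbors, at 0.90 (Pla1a) for Cd274, 0.89 (Spry1) for Pdcd1 and 0.87 (Arf6) for Pdcd1lg2, and Tigit had too few UMIs to be compared. In the annotation Rpl18-ps1 lies within Ctla4 on its strand, so reads there could be shared, and the transcripts that overlap Cd274 (AC119228.1), Pdcd1lg2 (A930007I19Rik) and Vsir (Cdh23) lie on the other strand.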

How the data were processed

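The authors deposited UMI counts per gene and barcode, made with Cell Ranger (matrix header 3.1.0) on mm10, for all barcodes and without normalization. Here a barcode was kept from 1000 UMIs upward if mitochondrial genes had no more than 17% of them, and doublets were not removed. Scrublet marked 278 WT barcodes and only 1 CD169-DTR barcode, so it did not work in the latter, and the 8% of highest scores were left out in an alternative instead. Libraries were integrated on 50 dimensions of 2000 variable features without the checkpoint and pathway genes and clustered on 30 dimensions at resolution 1, and T and NK cells again on 20 at 0.5. Clustering used Seurat 5.3.0 in R 4.3.3 (Matrix 1.6.5, SeuratObject 5.2.0). Sums and intervals used scipy 1.17.1, pandas 2.3.3 and numpy 2.4.6, figures matplotlib 3.10.9 and Scrublet scanpy 1.11.5, all in Python 3.11.15.

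A class name needed 3 markers with at least 10 UMIs and 25% of the highest cluster. Counts were summed per class and scaled to 1000000 UMIs. Intervals at 95% are exact Poisson (levels), exact conditional (ratios) and Clopper-Pearson (shares), and cover counting error only, as molecules of 1 cell are not independent. The limit for a count of 0 is 3 UMIs, which also stood in for 0 in counts of all genes past 1. Shares used cells thinned to 4500 UMIs, the 20th percentile. On simulated counts the intervals held the true ratio as often as they should. Those counts were independent, so this checks the code and not the intervals for counts gathered in single cells.

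The members and gene lists were chosen with earlier results of these data known. The naming thresholds, the 12 cluster contrasts in each library, the pairs of genes within cells outside T cells, the promoter motifs, the median estimate of free RNA and the limit of 10 microglial marker UMIs were set after values were seen. Pathway genes were named where past 1 in 1 of the 7 classes compared, and Cd28, Cd96 and Lgals9 also as partners of a member or rivals for its ligand. The authors' own clustering was not used here.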

Additional observations from a re-analysis of the deposited data

Results flagged for a closer look

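For 3 genes the intervals of the WT over CD169-DTR ratio excluded 0 in opposite directions in different classes. These differences between classes were not tested, since each group has 1 library. Cd80 was higher in WT in granulocytes (0.80) and T cells (2.07, on 22 UMIs against 2, and 1.67 with an interval of -0.43 to 4.85 without cells of over 10 microglial marker UMIs) and lower in microglia (-0.25). Lag3 was higher in WT in microglia (0.15), T cells (0.73) and NK cells (0.76) and lower in granulocytes (-1.20) and B cells (-1.03), of which the NK and granulocyte values changed sign without those marker-rich cells. The B cell value of Lag3 was then -1.62 (-7.18 to 1.54), on 1 UMI against 5, and it was 1.56 without the highest doublet scores. Vsir was higher in WT in B cells (0.49), where 76 of 86 WT and 61 of 74 CD169-DTR UMIs were in marker-rich cells and the rest gave 0.33 (-1.02 to 1.63), and lower in microglia (-0.16), macrophages (-0.45), DCs (-0.50) and granulocytes (-0.45).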

How the results depend on the processing

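No paired analysis was possible because each group has 1 library. Of 156 values of the main results under the alternatives, 138 stayed within their counting interval or count limit, 18 moved and 0 reversed. Of 478 values of single genes 432 stayed, 41 moved and 5 reversed. A value was counted as reversed only if its sign changed and its reported interval excluded 0. Other changes of sign, such as that of Havcr2 in microglia from -0.03 to 0.06, were counted as moved or stayed. Subtracting free RNA by its mean gave Cd274 0.37, Cd86 0.21, Havcr2 0.06 and Vsir -0.05 in microglia, Cd86 0.76 in macrophages and Cd86 -0.87 in NK cells. Median-ratio scaling gave Cd86 0.19 and Vsir -0.12 in microglia. The mean of CPM per cell gave Cd86 0.11 in microglia, Cd274 1.21 in DCs and Ctla4 0.70 in T cells. Giving each cluster the same weight in both libraries gave Cd274 0.46 and Vsir -0.06 in microglia. It gave Cd86 0.49 in macrophages and Ctla4 0.58 in T cells. Without the highest doublet scores, Ctla4 in T cells was 1.01, Lag3 1.56 in B cells and -0.91 in NK cells, and no WT mast cell was left. Without cells of over 10 microglial marker UMIs, Lag3 was 0.19 in granulocytes and -0.56 in NK cells. For macrophages split by Siglec1, 1 interval excluded 0 at 2000 UMIs, 3 without thinning (Pdcd1 among them, which is not counted when thinned) and 1 without the highest doublet scores. The cause of these shifts was not tested. The free RNA mean, the marker limit and the omission of 1 WT cell for Ctla4 were added after seeing the data. Replicate error is unknown, and values of under 50 cells or near 3 UMIs carry little.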
